A study of Mus musculus with 4 samples.

Results

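The H/ACA box small nucleolar RNAs (Snora genes) and the small Cajal body RNAs (Scarna genes) were followed in mouse gonads from E11.5 to E14.5. Members were chosen by their counts, as the rows whose gene name began with Snora or Scarna and a digit and that held at least 1 count in any of the 4 libraries. Detection itself is therefore a description and not a finding. Of 47 rows with such names, 44 had a count, 35 of them Snora and 9 Scarna, among 40999 listed features of which 31568 had a count. Just inside the rule were Snora19, with 12 to 24 counts per library, and Snora36b, with 47 to 77. Just outside it were Snora24, Snora26 and Snora35, which held 0 counts in every library, and a count of 0 allows up to 3 counts or 0.117 CPM (counts scaled to a fixed library size) in the smallest library. Snora24 overlaps an exon of Snhg8 and Snora26 an exon of Dancr on the same strand. How reads over these shared exons were assigned is not given, so the bound may not hold for Snora24 and Snora26. Snora35 lies in an intron of Htr2c, itself at 8, 1, 0 and 0 counts from E11.5 to E14.5.

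H/ACA RNAs fold into hairpins whose internal loops pair with a target RNA and place a uridine for conversion to pseudouridine. The hairpins are joined by the H box (hinge), and the RNA ends shortly after an ACA box. Each RNA works in a particle with the pseudouridine synthase dyskerin (Dkc1) and the proteins Nhp2, Nop10 and Gar1. Most Snora RNAs act on ribosomal RNA (rRNA) in the nucleolus, whereas Scarna RNAs act on the small nuclear RNAs of the spliceosome in Cajal bodies. The Scarna group is mixed in structure, because Scarna2, Scarna9 and Scarna17 are of the C/D type that guides ribose methylation, Scarna6 and Scarna10 join both types, and Scarna3a, Scarna3b, Scarna8 and Scarna13 are H/ACA RNAs. In mammals nearly all Snora RNAs are cut out of spliced introns of host genes.

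All 4 libraries came from wild-type C57BL/6J embryos with no treatment, and XX and XY gonads were pooled, so neither sex nor single embryos can be told apart. Each of the 4 days was 1 library made from the pooled gonads of at least 6 males and 6 females of 2 litters. At E11.5 the whole genital ridge with its mesonephros was taken, and from E12.5 on the gonad alone. Without replicates no difference here has a test, and every interval covers counting error only. Total counts were 25593453 to 31752562 per library. Nuclear rRNA, which depletion should remove, took 9.06%, 1.31%, 1.03% and 40.7% of counts in the order of the days. The gonadal somatic markers Wt1, Nr5a1, Gata4, Lhx9 and Emx2 were present in each library at 1045 counts or more, and the 5 germ cell markers summed to 2158, 10907, 16780 and 6108 counts. The 5 mesonephros markers summed to 3389 counts at E11.5 and to 397 to 827 afterwards, with none at 0 in any library. The part of rRNA content and of the dissection in the results below was not tested. In bulk RNA, fewer cells of a type and less RNA per cell cannot be told apart.

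The sequences below carry the contrasts described afterwards. They are transcripts of GENCODE mouse M21 on GRCm38 (the mm10 build of the files), 5′ to 3′, with T for U. Capitals mark the first match to the H box consensus ANANNA that starts between 40% and 65% of the length, and the ACA that stands exactly 3 bases before the 3′ end where there is one. First are the most counted members, Snora73a (chr4:132352775-132352979, minus strand) and Snora73b (chr4:132352322-132352526, minus strand), neighbouring copies in Snhg3 introns, which are identical at 198 of 205 aligned positions (96.6%).
Snora73a: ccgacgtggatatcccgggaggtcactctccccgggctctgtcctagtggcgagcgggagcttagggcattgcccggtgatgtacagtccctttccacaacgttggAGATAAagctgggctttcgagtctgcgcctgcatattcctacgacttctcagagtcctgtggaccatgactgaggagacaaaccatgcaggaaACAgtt
Snora73b: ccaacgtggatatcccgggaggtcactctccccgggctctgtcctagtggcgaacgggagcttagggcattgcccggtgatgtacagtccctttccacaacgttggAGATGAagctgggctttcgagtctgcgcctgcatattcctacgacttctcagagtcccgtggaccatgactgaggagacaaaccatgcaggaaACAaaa
Next are the 3 members encoded in Snhg12 introns on the plus strand, which held the lowest change at E12.5 and 3 of the 5 highest at E14.5: Snora61 (chr4:132310240-132310369), Snora44 (chr4:132309941-132310069) and Snora16a (chr4:132309464-132309600).
Snora61: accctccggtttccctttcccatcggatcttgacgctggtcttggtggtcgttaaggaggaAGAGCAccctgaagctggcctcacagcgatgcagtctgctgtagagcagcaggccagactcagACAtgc
Snora44: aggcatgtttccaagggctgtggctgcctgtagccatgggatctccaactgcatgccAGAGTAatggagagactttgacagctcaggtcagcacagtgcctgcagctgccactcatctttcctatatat
Snora16a: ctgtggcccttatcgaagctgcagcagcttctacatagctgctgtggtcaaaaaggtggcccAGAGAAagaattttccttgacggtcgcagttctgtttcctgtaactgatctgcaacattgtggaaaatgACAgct
Snora47 (chr13:95330600-95330737, plus strand), in an intron of Zbed3, had the highest change of all members at E14.5. Its GENCODE model ends 1 base farther than the ACA rule allows, so no ACA is marked.
Snora47: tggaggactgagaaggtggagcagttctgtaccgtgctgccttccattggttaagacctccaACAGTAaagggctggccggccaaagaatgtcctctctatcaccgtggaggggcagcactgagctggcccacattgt
Snora17 (chr2:26639190-26639321, minus strand) and Snora43 (chr2:26637847-26637985, minus strand) share the host Snhg7 but changed unequally. Snora17, like Snora44, has no ACA at the marked place.
Snora17: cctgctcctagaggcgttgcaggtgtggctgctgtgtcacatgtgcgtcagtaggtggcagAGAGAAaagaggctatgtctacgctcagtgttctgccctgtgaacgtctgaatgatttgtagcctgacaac
Snora43: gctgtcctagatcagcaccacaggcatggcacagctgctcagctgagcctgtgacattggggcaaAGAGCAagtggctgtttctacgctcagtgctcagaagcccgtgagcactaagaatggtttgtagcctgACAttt
Scarna8 (chr4:86586453-86586583, minus strand), in an intron of Haus6, is shown because it has the build and length of a Snora RNA.
Scarna8: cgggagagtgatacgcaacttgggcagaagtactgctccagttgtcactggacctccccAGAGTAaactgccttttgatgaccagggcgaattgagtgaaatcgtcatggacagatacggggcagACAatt
For Scarna2 (GENCODE model chr3:108554338-108554751, minus strand) and Scarna9 (chr9:15326264-15326333, minus strand), both C/D RNAs, the part that the authors' annotation counted is shown. It spans 61 of 414 bases of Scarna2 (chr3:108554342-108554402) and 42 of 70 bases of Scarna9 (chr9:15326289-15326330).
Scarna2: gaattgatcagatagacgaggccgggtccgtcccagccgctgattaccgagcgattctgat
Scarna9: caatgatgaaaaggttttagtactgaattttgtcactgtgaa
By the same search, 32 of the 38 listed Snora RNAs had ACA exactly 3 bases from the end, 35 had the ANANNA hinge and 30 had both. Only the given strand was searched, and the ACA and ANANNA matches could not overlap. The same letters stood at the same places in 1.60%, 39.95% and 0.734% of RefSeq GRCm38 promoter windows of equal lengths. Of the 9 Scarna RNAs 2 had the terminal ACA (Scarna8 and Scarna13), and of 75 matched C/D box (Snord) RNAs none did. These matches are a description of letters, not of function.

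The members spanned a wide range of levels. Summed, they held 61211, 47077, 53832 and 56241 counts from E11.5 to E14.5, or 0.196%, 0.184%, 0.170% and 0.178% of all counts. With rRNA and each library's 10 most counted genes left out, the shares were 0.260%, 0.219%, 0.1999% and 0.427%, and E14.5 was highest. Snora73b had 7933, 6536, 7511 and 6337 counts, and Snora73a had 7192, 5514, 6087 and 5377. These RNAs, also called U17 or E1, are known for a part in processing of the rRNA precursor. Together they held 24.7% of the members' counts in the first library and 20.8% in the last, and the 10 most counted members held 62.2% and 59.3%. Being near-identical, the pair may share reads, so the sum is firmer than either value. Per length, as deposited TPM, which divides counts by the counted length and scales each library to the same sum, Scarna2 was highest at 2127, 2772 and 2780 TPM from E11.5 to E13.5. Snora68 was highest at E14.5 with 1423 TPM, after 1922, 2214 and 2211. Scarna2's TPM rests on the 61 counted bases, and whether a count over its whole RNA would give the same rank was not tested. Scarna10, counted over 71 of 325 bases, had 1374, 1651, 1745 and 840 TPM. Snora73b had 1743, 1912, 1906 and 1100 TPM and Snora73a 1580, 1613, 1544 and 934. Next by mean TPM were the ribosomal protein intron RNAs Snora3 (1143, 1185, 1177 and 996 TPM), Snora21 (1095, 1163, 1154 and 838 TPM) and Snora7a (1047, 832, 817 and 1047 TPM), with Snora61 (1146, 590, 504 and 810 TPM). The median member stood at 321, 255, 252 and 240 TPM, and the lowest was Snora19 at 14.48 TPM at E11.5 and 7.63 at E14.5.

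**Figure D1:**
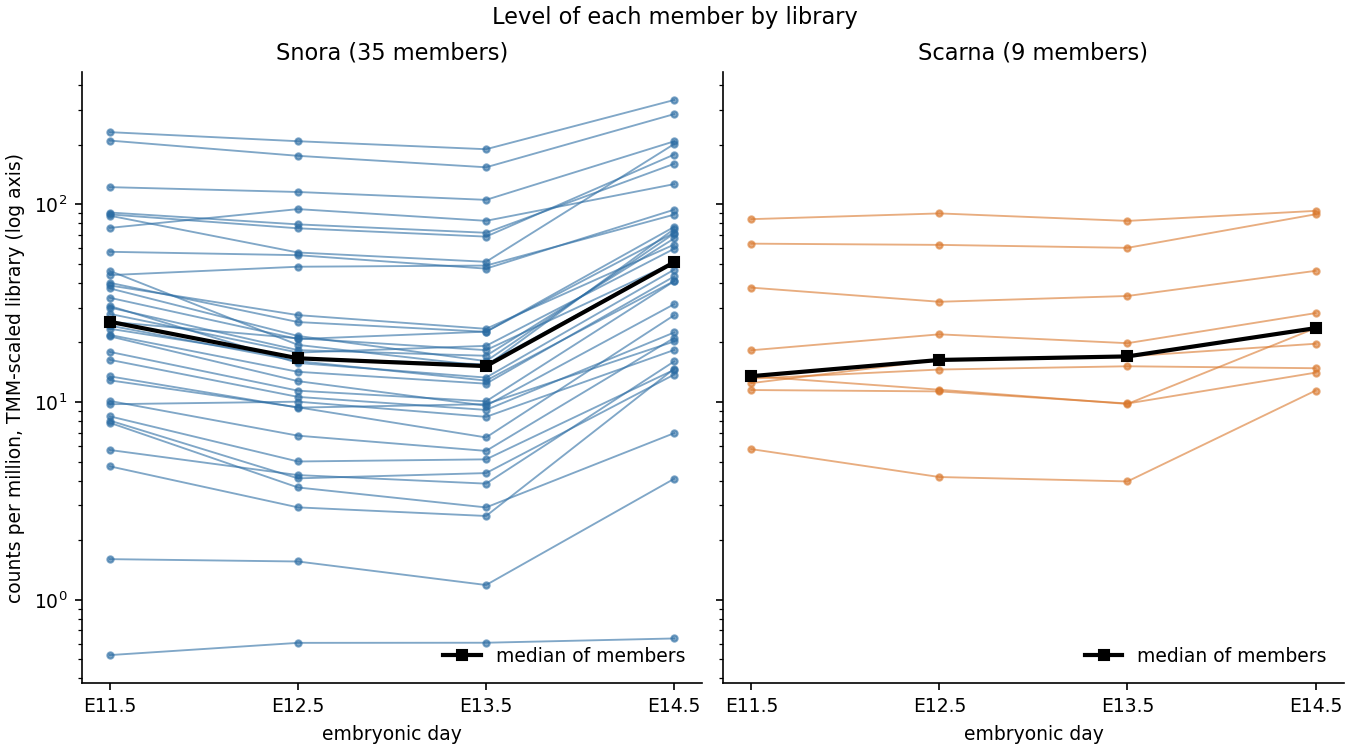
Each line is 1 member, with the embryonic day on the x axis and CPM of the TMM-scaled library on a log y axis. Snora members are on the left, Scarna members on the right, and the black squares are group medians. By this scaling 34 of 35 Snora and 8 of 9 Scarna members were highest at E14.5. This rank depends on the scaling. By deposited TPM 19 of 44 members were higher at E14.5 than at E13.5, beside 570 of 18992 features.

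Neighbouring time points were compared as log2 ratios of TMM-scaled counts, which measure a member against the bulk of features, and a member was called where it passed 2-fold. All 44 members passed the filter on low counts in each comparison, and each had at least 12 counts in every library. At E12.5 against E11.5, 36 members were lower and 8 higher, with a median log2 ratio of −0.46 against −0.00409 for all 19215 features tested. By total counts 14 members were higher and the median was −0.30, and by the TPM ratio 20 were higher and it was −0.18. The median feature itself was at 0.16 by total counts and at 0.28 by the TPM ratio. Of the 44 members, 2 fell past 2-fold and 0 rose, where 9.11% of all features fell and 8.64% rose. The members' share of falls, 4.55%, was below that background. Snora61, whose counted window holds 62 of its 130 bases, had 1577 counts before and 610 after, a log2 ratio of −1.24 (95% interval −1.38 to −1.11). Snora43 had 269 and 116 counts, a log2 ratio of −1.08 (−1.41 to −0.77), an interval that reaches values short of 2-fold, and by total counts Snora61 alone passed. Snora2b (276 and 129 counts, −0.97) and Snora52 (1048 and 494 counts, −0.96) stood just short of the line, followed by Snora44 at −0.80 and Snora15 at −0.76. The counting interval lay below 0 for 32 members, above 0 for 5 and across 0 for 7.

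The median of the Scarna RNAs at this step was −0.02 with 4 of 9 higher, against −0.58 with 4 of 35 higher for Snora. The classes overlapped, and the difference was not tested. Scarna3b (−0.47), Scarna13 (−0.24), Scarna3a (−0.23), Scarna8 (−0.02) and Scarna10 (−0.02) were lower. Scarna17, a C/D RNA, went from 427 to 512 counts (0.39, interval 0.20 to 0.58). Scarna6 had 626 and 690 counts (0.27), Scarna9 450 and 458 (0.15) and Scarna2 2881 and 2820 (0.10). None of these passed 2-fold, and the highest Snora value, 0.32, was that of Snora74a (2603 and 2965 counts). Other short RNAs shifted downwards too, with medians of −0.83 for 68 Snord RNAs, of which 18 fell past 2-fold, −0.57 for 269 nuclear tRNAs and −0.84 for 10 small nuclear RNAs. The mesonephros was left out from E12.5 on, and 3 of its 5 markers fell past 2-fold with it. All 3 listed macrophage markers fell as well (1155 to 415 counts summed), while 3 of 5 gonadal somatic, 4 of 5 germ cell and 2 of 5 red blood cell markers rose and none of 4 endothelial markers passed 2-fold. Nuclear rRNA went from 9.06% to 1.31% of counts across the same step. The part of these in the lower member values was not tested.

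At E13.5 against E12.5 no member passed 2-fold, where 3.28% of 19152 features rose and 1.98% fell (5.27% in either direction). The members' median was −0.15 and their range ran from −0.51 to 0.12. Snora16a was lowest, with 295 counts and then 262 (−0.51, interval −0.75 to −0.26). Snora44 (677 and 637 counts, −0.43), Snora64 (400 and 379, −0.42) and Snora36b (49 and 47, −0.40) followed it. Snora30 was highest with 653 and 898 counts (0.12), followed by Snora65 at 0.11 and Scarna13 at 0.09. No counting interval lay wholly above 0, 23 lay below it and 21 held it.

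At E14.5 against E13.5, 32 of 44 members rose past 2-fold and 0 fell, where 6.44% of 18992 features rose and 2.51% fell (8.95% in either direction). The median of members was 1.46, against 0.00508 for all features. The scaling weighs on this step more than on the others. By total counts the median of all features was −1.07 and that of the members was 0.38. By the same counts 3 members rose past 2-fold (Snora44, Snora61 and Snora47) and 1 fell (Scarna9), where 323 of 18992 features rose and 11598 fell. By the deposited TPM, in which rRNA takes part in the sum, the members' median turned to −0.17 and that of all features was −1.63. The size of the change thus depends on the scaling. Nuclear rRNA went from 1.03% to 40.7% of counts at this step, and its part in the members' values was not tested.

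The rise was found in 30 of 35 Snora RNAs and 2 of 9 Scarna RNAs by TMM scaling. Snora47 went from 105 to 277 counts, a log2 ratio of 2.49 (interval 2.16 to 2.83). Snora61 had 601 and 1411 counts (2.32, 2.18 to 2.46), and Snora44 had 637 and 1339 (2.16, 2.02 to 2.30). These were the members that also passed 2-fold by total counts. Snora16a (262 and 517 counts, 2.07), Snora20 (153 and 302, 2.07) and Snora5c (399 and 768, 2.03) came next. Snora7a, in an intron of Rpl32, had 2025 and 3794 counts (1.996), and its share of the members' counts changed among the most of any member. The nearest value past the line was that of Snora68 with 4165 and 3916 counts (1.001), and the nearest short of it that of Snora73a with 6087 and 5377 (0.91). Their raw counts were lower at E14.5, so their direction flips by total counts. The 5 Snora RNAs not called were Snora73a, Snora73b (0.84), Snora81 (0.87), Snora74a (0.63) and Snora19, whose 24 and 12 counts left an interval of −1.04 to 1.15.

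Among Scarna RNAs, Scarna3a (387 and 445 counts, 1.29) and Scarna3b (157 and 215 counts, 1.54) rose by TMM scaling. The other 7 were below 2-fold. Scarna10 had 2382 and 1675 counts (0.58), Scarna8 389 and 265 (0.54), Scarna6 785 and 530 (0.52) and Scarna13 1360 and 867 (0.44). Scarna17 had 673 and 371 counts (0.23), Scarna2 3260 and 1743 (0.19) and Scarna9 600 and 279 (−0.01, interval −0.22 to 0.19). The raw counts of these 7 were lower at E14.5, and by TPM 0 of 9 Scarna RNAs were higher, beside 570 of 18992 features. The direction of all but Scarna9 thus flips with the scaling. Scarna3a and Scarna3b lay inside the Snora range, and the other 7 lay below every Snora RNA except Snora19. Scarna8, with the box pattern and length of a Snora RNA, was lower than Scarna3a and Scarna3b by counting intervals that do not overlap (0.31 to 0.77 against 1.09 to 1.49 and 1.24 to 1.85). Beside the members, 53 of 69 Snord RNAs (median 1.59), 198 of 258 nuclear tRNAs (1.38) and 8 of 10 small nuclear RNAs (1.35) rose by the same scaling.

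**Figure D2:**
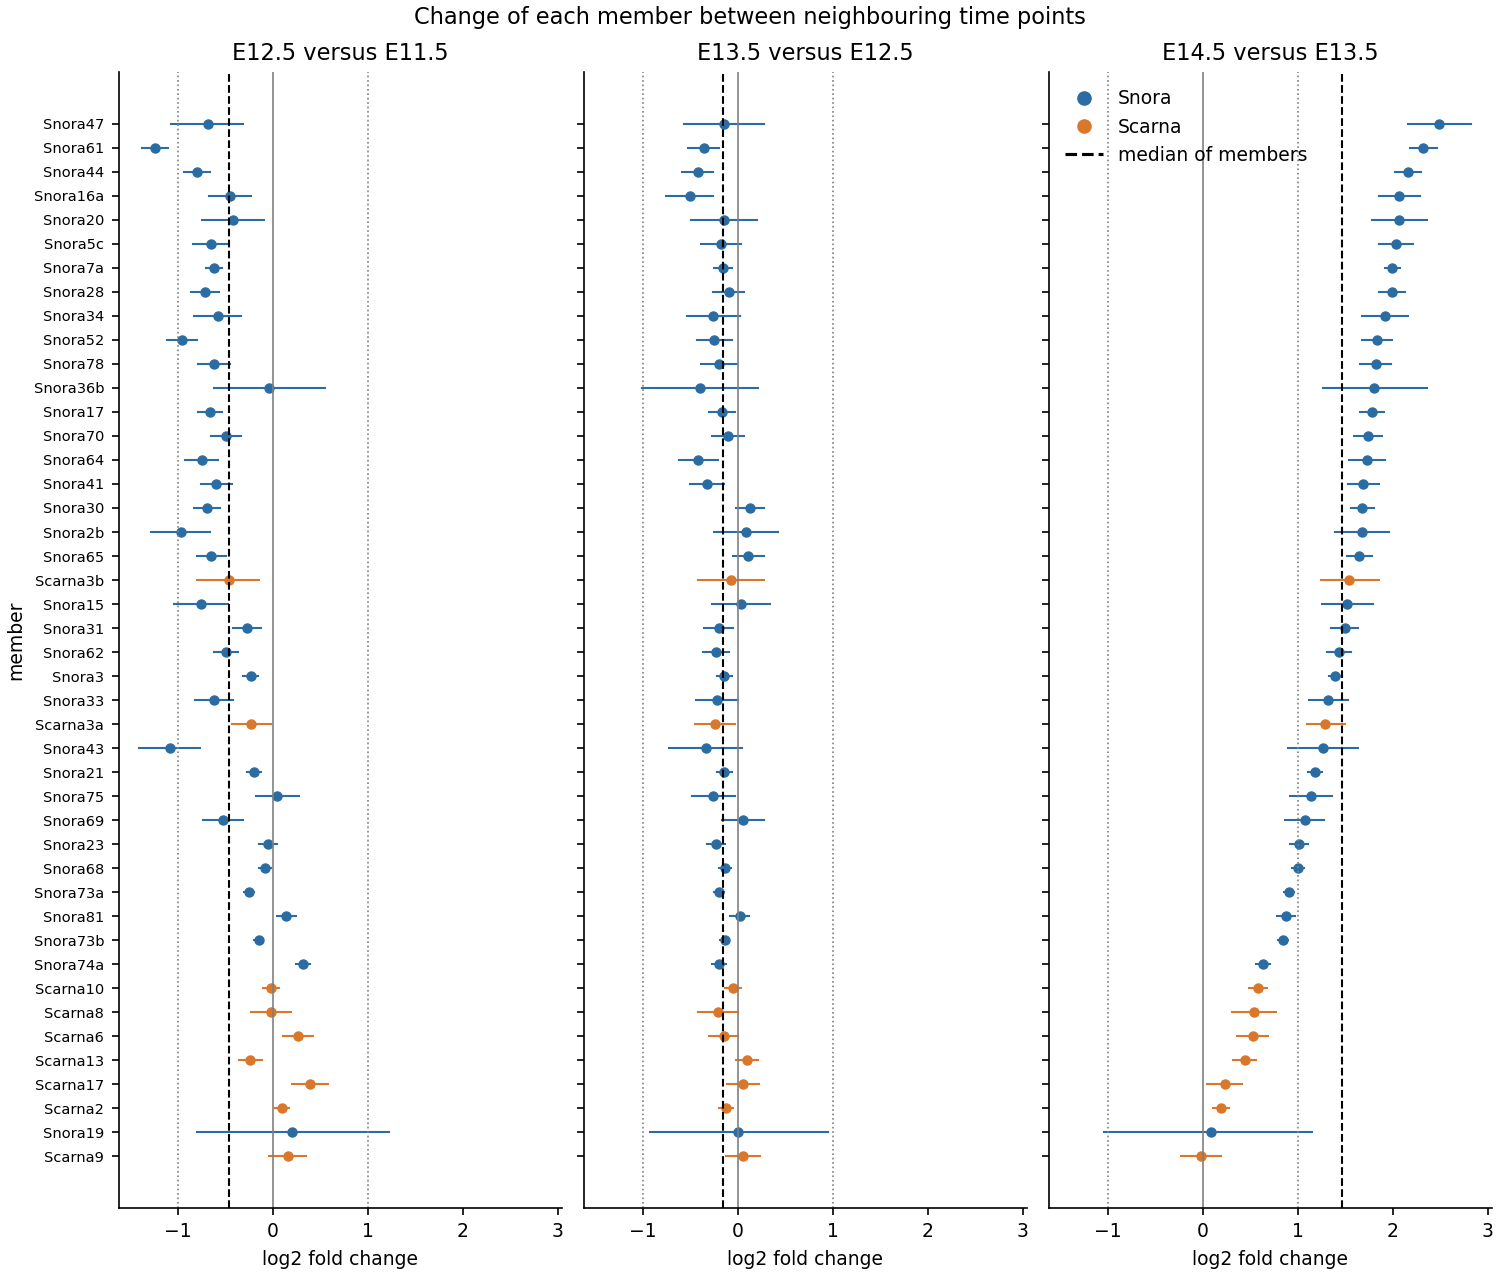
Log2 fold change (x axis) of each of the 44 members (rows, ordered by E14.5 versus E13.5) in the 3 comparisons, by TMM scaling. Bars are 95% counting intervals, dotted lines mark 2-fold and dashed lines the median of members, which was −0.46, −0.15 and 1.46. By deposited TPM the median of members at E14.5 turned to −0.17, where that of all features was −1.63.

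The steps at E12.5 and E14.5 share no library and can be set side by side. Of the 44 members, 36 were lower at the first and higher at the last, 31 of 35 Snora and 5 of 9 Scarna. Both members that fell at E12.5, Snora61 and Snora43, were among the 32 that rose at E14.5, which is 100% of the first list and 6.25% of the second. Of all 44 members 72.7% rose at E14.5 by the same scaling. Across members, those lower at E12.5 tended to be higher at E14.5, with a Spearman rho of −0.75 over 44 members, −0.61 over 35 Snora and −0.65 over 9 Scarna. The points share their 2 pairs of libraries, and both rRNA-rich libraries stand at the outer ends of the series, so this is a description only. Pooled, it also reflects the gap between the classes.

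Members of different lengths differed as well. At a limit of 150 bases of the GENCODE transcript, chosen after the values were seen in the gap between Snora62 (149 bases) and Snora81 (178 bases), 35 members were short and 9 long. At E14.5, 31 of 35 short members rose by TMM scaling (median 1.67) and 1 of 9 long ones (0.63). Within Snora the counts were 29 of 30 short (median 1.71) and 1 of 5 long (0.87), the long ones being Snora23, Snora73a, Snora73b, Snora74a and Snora81. At E12.5 the short Snora RNAs had a median of −0.62 and the long ones −0.06. The members with the shortest GENCODE models did not follow, as Scarna9 (70 bases) and Scarna17 (79 bases) had values of −0.01 and 0.23 at E14.5. A rank correlation with length was weak (rho 0.27 at E12.5 and −0.30 at E14.5 over 44 members, 0.32 and −0.35 over 35 Snora). Other features, with Snord, rRNA and miRNA left out, that were counted over 500 or more bases had medians of 0.00453 and −0.00369 at the same steps. Those of 200 to 299 bases (31 and 35 features) had 0.13 and 0.21, and those of 150 to 199 bases (16 and 15 features) −0.74 and 0.88. Those of 100 to 149 bases (11 and 10 features) had −0.60 and 1.25, and those under 100 bases (289 and 279 features) −0.55 and 1.33. Nuclear tRNAs were not left out here (269 and 258 tested). The bin under 100 bases is thus not separate from the tRNA values above. The 8 members counted over under 100 bases had medians of 0.04 and 0.41. This counted length is not their transcript length, as Scarna2 (61 of 414 bases), Scarna10 (71 of 325) and Snora61 (62 of 130) are among them. At E14.5 these 8 ran from −0.01 (Scarna9) to 2.32 (Snora61). Whether library making or alignment by length has a part in this was not tested.

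**Figure D3:**
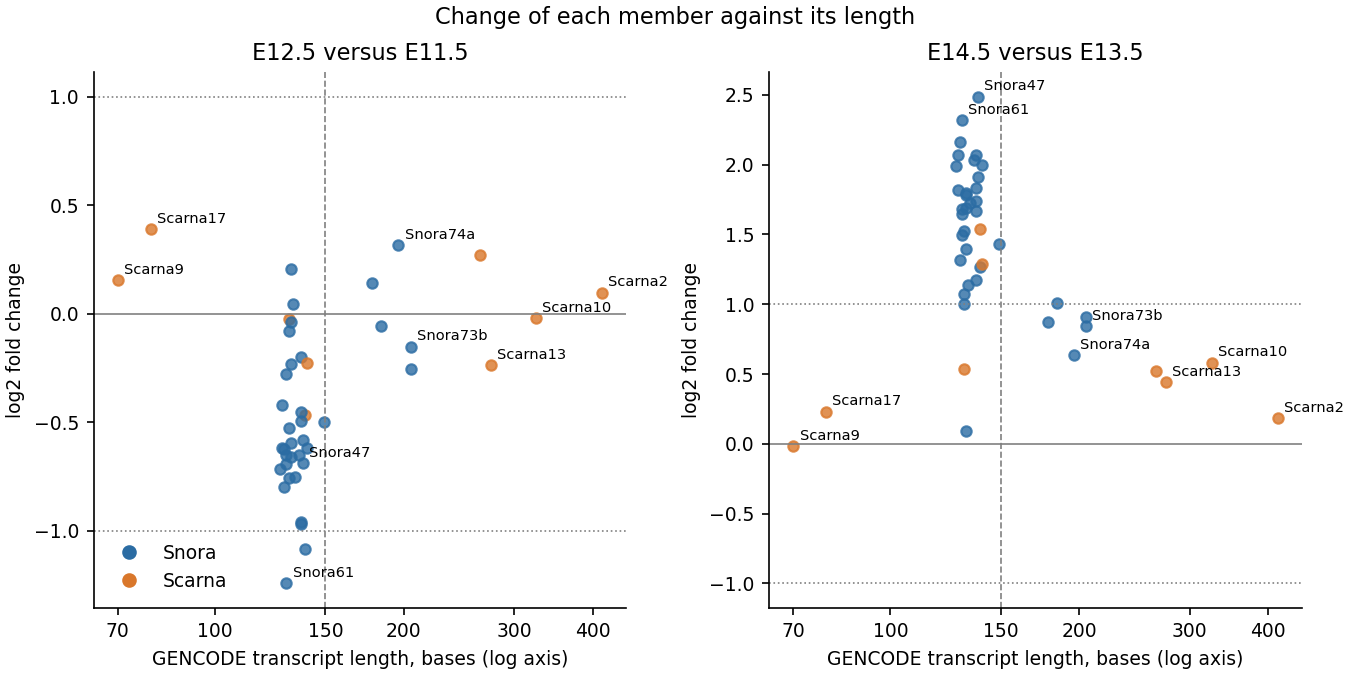
Log2 fold change by TMM scaling (y axis) of each member against its GENCODE transcript length in bases (log x axis), at E12.5 versus E11.5 and E14.5 versus E13.5. The dashed line is at 150 bases and dotted lines mark 2-fold. At E14.5, 31 of 35 members left of the line and 1 of 9 right of it passed 2-fold. By total counts 3 of these 32 also rose past 2-fold, beside 323 of 18992 features.

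Members of 1 locus or family were compared within each library, where the scaling cancels. In Snhg12 the ratio of Snora61 to Snora44 counts was 1.23 (interval 1.14 to 1.32), 0.901 (0.806 to 1.01), 0.943 (0.843 to 1.06) and 1.05 (0.977 to 1.14) over the 4 days. Snora44 to Snora16a went 2.92, 2.29, 2.43 and 2.59. The intervals of the first ratio held 1 on 3 of the 4 days, and the counted windows differ in length (62 bases of Snora61 and 117 of Snora44), so these ratios compare counts and not levels per length. In Snhg7 the ratio of Snora17 to Snora43 was 5.10 (4.48 to 5.84), 6.86 (5.64 to 8.41), 7.72 (6.36 to 9.46) and 11.04 (9.23 to 13.3). Snora17 had 1373, 796, 896 and 1446 counts and Snora43 had 269, 116, 116 and 131, so the raw count at E14.5 was above that at E11.5 for Snora17 and below it for Snora43. These 2 RNAs, shown above, have 67.8% identity, where Snora17 and Snora21, of different hosts, have 60.3% by the same alignment. In Kansl2 the ratio of Snora34 to Snora2b was 1.26, 1.64, 1.29 and 1.53, with 347, 212, 224 and 397 counts for Snora34. Snora73a to Snora73b was 0.907, 0.844, 0.810 and 0.849, and Scarna3a to Scarna3b, on chromosomes 1 and 12 and 85.7% identical, was 2.34, 2.76, 2.46 and 2.07.

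By TMM scaling no host gene passed 2-fold where its members did. Of the 44 members, 42 lie in introns of 37 hosts on the same strand, and Scarna2 and Scarna17 have none. None of the 37 hosts passed it in any comparison by this scaling, where 17.8%, 5.27% and 8.95% of all features did. Their medians were 0.06, −0.03 and −0.05. By total counts 11598 of 18992 features fell past 2-fold at E14.5, and how many hosts did was not counted. At E12.5, 35 of 42 members were below their host, with a median difference of −0.47. At E14.5 all 42 members were above it, with a median difference of 1.45, and this difference between a member and its host within a pair of libraries is free of the scaling. The difference was within the counting interval for Scarna9 and Snora19. Snhg12, the host of Snora61, had 442, 464, 600 and 243 counts and log2 ratios of 0.20, 0.03 and −0.21. Zbed3, the host of Snora47, had 1770, 1402, 1655 and 773 counts and stood at −0.01 at E14.5. Snhg7 had 202, 161, 189 and 82 counts, and Snhg3, the host of Snora73a and Snora73b, 202, 193, 245 and 105. By TMM scaling the host nearest to the line was Snhg9 (79, 60, 53 and 47 counts, 0.91 at E14.5). It hosts Snora78, which went from 490 to 812 counts at that step (1.82).

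By kind of host, all 11 members in ribosomal protein genes rose at E14.5 by TMM scaling (median 1.43). So did 6 of 10 in Snhg genes, 2 of 4 in translation factor genes and 13 of 17 in others. Over all members 32 of 44 rose, beside 6.44% of all features. All 11 in ribosomal protein genes had GENCODE transcripts of 149 bases or fewer. The Snhg members not called (Snora73a, Snora73b, Snora74a and Scarna13) were above 150 bases, and those called were below it. The part of length in these counts was not tested. Both members that fell at E12.5 lay in Snhg genes. The median distance from the RNA's 3′ end to the next host exon was 168 bases, and the longest was 77876 bases for the undetected Snora35. For Snord RNAs it was 85 bases. Scarna13, Snora47 and Snora34 also contain annotated miRNA precursors, counted apart, namely microRNA 3069 (98, 76, 109 and 63 counts), microRNA 1940 (28, 20, 27 and 56) and mir-1291 (54, 32, 43 and 57). Whether these are reads of the longer RNA was not tested.

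**Figure D4:**
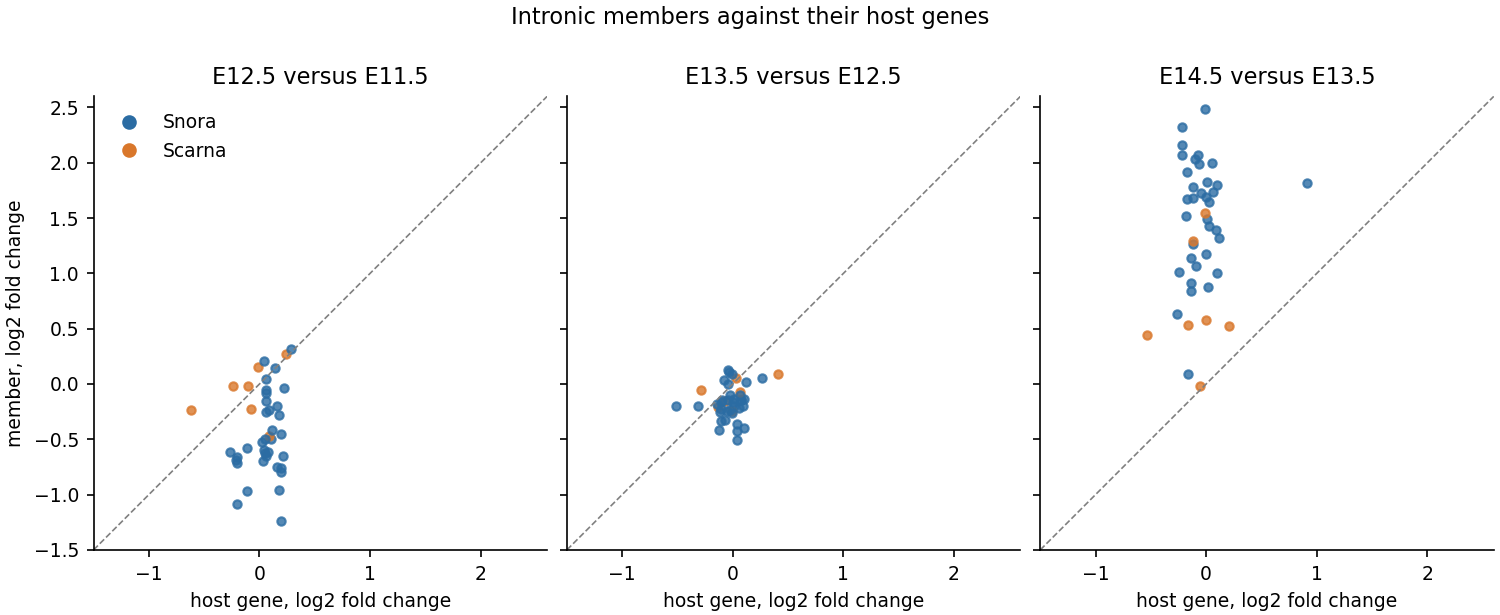
Log2 fold change by TMM scaling of 42 intronic members (y axis) against that of their host gene (x axis) in the 3 comparisons, with a dashed line of equality. Hosts stay within 2-fold throughout by this scaling. At E14.5 all 42 members lie above the line, a position that no scaling changes.

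Ratios of summed counts within a library likewise need no scaling. Snora to Scarna counts stood at 5.88 (interval 5.74 to 6.01), 4.68 (4.57 to 4.79), 4.39 (4.29 to 4.48) and 7.80 (7.60 to 8.01) over the 4 days. The intervals do not overlap, so the share of Scarna counts was lowest at E14.5 and highest at E13.5 beyond counting error. Members to Snord counts stood at 1.03, 1.51, 1.62 and 1.11, highest at E13.5, where Snora to Scarna was lowest. Against Rn7sk, the abundant RNA of the P-TEFb particle, Scarna counts stood at 0.0303, 0.0324, 0.0341 and 0.0329, and Snora counts at 0.178, 0.151, 0.150 and 0.257. Against Rnu12, the U12 RNA of the minor spliceosome, Scarna counts stood at 0.840, 1.34, 1.39 and 0.704 and Snora counts at 4.93, 6.29, 6.11 and 5.49. The course over the days thus differed with the reference RNA.

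**Figure D5:**
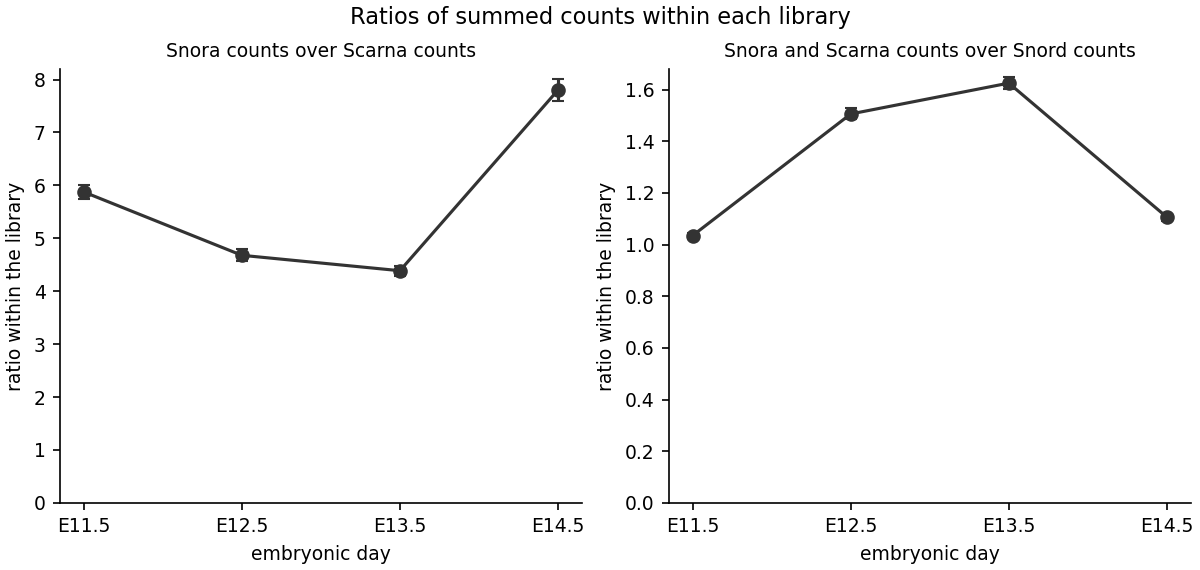
Ratios of summed counts within each library (y axes, from 0) by embryonic day, for Snora over Scarna and for all members over Snord RNAs, with 95% counting intervals. The first was 7.80 at E14.5 and 4.39 to 5.88 before, and the second was 1.51 and 1.62 at E12.5 and E13.5 and near 1 at the outer time points.

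No protein gene of the lists below passed 2-fold in any comparison by TMM scaling, where 17.8%, 5.27% and 8.95% of all features did. Of the particle core, Dkc1 had 1559, 1629, 1823 and 773 counts, Nhp2 754, 828, 914 and 421, Nop10 784, 794, 840 and 452, and Gar1 729, 728, 826 and 354. Their log2 ratios ran from 0.13 to 0.26 at E12.5, from −0.26 to −0.16 at the next step and from −0.15 to 0.20 at the last. At the middle step all 4 were lower, with a median of −0.18 beside −0.15 for the members, and the 8 assembly factors had a median of −0.16. By TMM scaling none of these 8 assembly factors, such as Naf1 and Shq1, passed 2-fold. Nor did any of 15 listed Cajal body genes, such as Coil (coilin) and Wrap53, which brings RNAs to the Cajal body. The same held for 9 genes that trim RNA ends such as Parn, 12 stand-alone pseudouridine synthases and the 3 listed genes of the C/D core. At E14.5 the medians of these lists were between −0.18 and −0.02 by TMM scaling. By total counts they were between −1.26 and −1.10, where that of all features was −1.07 and 11598 of 18992 features fell past 2-fold. Terc, the telomerase RNA, ends in an H/ACA domain bound by the same proteins. It had 456, 360, 277 and 217 counts and log2 ratios of −0.21, −0.72 and 0.74, without passing 2-fold, and Tert, the telomerase protein, stood at −0.33, −0.04 and −0.15.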

How the data were processed

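Members, gene lists and comparisons were chosen with earlier results of these data known. The authors depleted rRNA, built stranded libraries with unique molecular identifiers (SEQuoia), aligned reads to mm10 with STAR, removed duplicates with UMI-tools and counted reads per feature with featureCounts. Versions and the treatment of reads with several positions are not given in the sources used here. The deposited files give the count, RPKM and TPM of each feature. RPKM was not used, and TPM was checked to follow from count and length.

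Each library was compared with the previous one (R 4.3.3, edgeR 4.0.16). Features kept by filterByExpr were scaled by TMM, and log2 ratios (prior count 0.125) carry 95% intervals made from the exact Clopper-Pearson bounds of the later library's part of both counts. With 1 library per time point there is no test of a condition, and a call means past 2-fold. A count of 0 allows 3 counts, 0.0945 to 0.117 CPM, where reads can be assigned to the feature. Intervals cover counting error only. Hosts are features of the files on the same strand, and not every host is reported here. All sequences and transcript lengths are from GENCODE M21 and promoters from RefSeq GRCm38. The files' members were matched to GENCODE transcripts by name, chromosome, strand and overlap. The counted window spans the whole transcript for 10 of the 47 listed. The counted window spans under 80% of the GENCODE transcript for 9 of the 44 members.

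Named members are the 12 with the highest mean TPM, in each comparison the 6 highest and 6 lowest with at least 50 counts in the pair, those next to the 2-fold line, all Scarna RNAs, members sharing a host or number, and the 4 whose share of counts moved most. Alternatives were total counts, size factors of DESeq2 1.42.0, TMM on protein-coding features alone, other filters, folds and prior counts, the TPM ratio, and edgeR's exact test at preset coefficients of variation. Those on the counted window and the Snora to Scarna ratio were chosen after seeing the data, as were Snora78 and its host.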

Additional observations from a re-analysis of the deposited data

How the results depend on the processing

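With 1 library per time point, no library could be left out, and no paired analysis was possible because no group had a second sample. At E12.5 the 2 calls became 1 by total counts, 1 with members whose counted window spans at least 80% of the transcript, 0 at 4-fold, and 1 and 0 under edgeR's exact test (FDR 0.05) at preset coefficients of variation of 0.2 and 0.4. The median of −0.46 became −0.30 by total counts and −0.18 by the TPM ratio, where that of all features was 0.16 and 0.28. At E13.5 no alternative gave a call. At E14.5 the 32 calls became 4 by total counts, 6 at 4-fold and 0 at a coefficient of variation of 0.4, with 24 to 32 under the others. By total counts 323 of 18992 features rose past 2-fold at this step and 11598 fell. The median of 1.46 became 0.38 by total counts and turned to −0.17 by the TPM ratio, where that of all features was −1.07 and −1.63. The scaling's own construction bears on these, as rRNA is in the total. With rRNA and each library's 10 most counted genes left out, members held 0.260%, 0.219%, 0.1999% and 0.427% of counts from E11.5 to E14.5. Without the most counted RNA of each class, the ratio of members to Snord was 1.002, 1.44, 1.55 and 1.13 and that of Snora to Scarna 7.37, 5.89, 5.40 and 9.36. With only Snora RNAs ending in ACA and 3 bases, the latter was 4.98, 3.88, 3.63 and 6.49. The order of the 4 time points was the same in each of these ratios as in the main ones.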
